A study of Arabidopsis thaliana with 30 samples.

Results

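Seed of Arabidopsis thaliana Col-0 was compared after 6 h and after 1 h of light, with 3 one-colour arrays at each time, 6 of the 30 arrays of the series. The seed of both groups had been sterilised and plated on MS medium, and had spent 48 h at 4 °C in darkness (stratification). It then went to 22 °C and uninterrupted light at 100 µE m-2 s-1, so the groups had the same light and warmth and differed in time. The series also holds freshly harvested seed, dry seed, seed after 1, 12 and 48 h of stratification and seed after 12, 24 and 48 h of light, which are used here only to place the interval. Whole seed was extracted, and fewer cells of a type and less RNA per cell cannot be told apart. The labels do not say whether the replicates are separate seed batches, and p-values cover the variation among these arrays alone, which may be technical.

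A stratified seed that is warmed and lit moves from using its stored programme to building a seedling. Transcripts laid down during maturation, for storage globulins and for late embryogenesis abundant (LEA) proteins that protect dry cells, are lost. Transcripts for cell wall loosening, microtubules, protein breakdown and the plastid are made before the root emerges.

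Levels below are deposited intensities of probe sets, in the order of replicates 1, 2 and 3. Differences are 6 h minus 1 h of log2(intensity + 16), with the standard error and the Benjamini-Hochberg adjusted p of limma, fitted to all 30 arrays. Adding 16 understates the change of weakly measured genes. A probe set counted as higher or lower with an adjusted p under 0.05 and a log2 difference of at least 1. Intensities of different probe sets are not comparable with each other.

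Median intensity per array ran from 13.1 to 16.2, and arrays of one group correlated at r of 0.995 to 0.997 against 0.946 to 0.956 between the groups (across probe sets, log2 scale, a description only). The labelled tissue was borne out by marks of mature seed such as PAP85, a vicilin-like storage globulin, which was read at 21106, 22842 and 21892 at 1 h and at 6505, 7646 and 6826 at 6 h. The 3 named marks of seed coat and endosperm (BAN, AT3G50990 and AGL62) lay between 4.09 and 6.15 on all 6 arrays, at the floor. The 3′ control probe set of actin exceeded the 5′ one by 4.27 (log2, mean of 3 arrays) at 1 h and by 4.74 at 6 h, and for GAPDH by 2.44 and 2.72. The part of that difference in the results below was not tested.

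Between 1 h and 6 h, 1974 of 22746 probe sets changed (8.68%). Of these 975 were higher at 6 h (4.29%) and 999 lower (4.39%), and in all of them the 3 arrays of one group lay above the 3 of the other. The falls were steeper at the top. At least 4-fold lower were 212 probe sets and at least 4-fold higher 133, and the log2 difference reached 3 in 50 falls and 26 rises. Probe sets that fell had a median intensity of 285 at 1 h and 78.8 at 6 h. Those that rose went from 59.9 to 216, and 138 of them (14.2%) were under 16 on every array at 1 h. Exactly 1 gene was named by 478 of the rises and 489 of the falls.

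**Figure D1:**
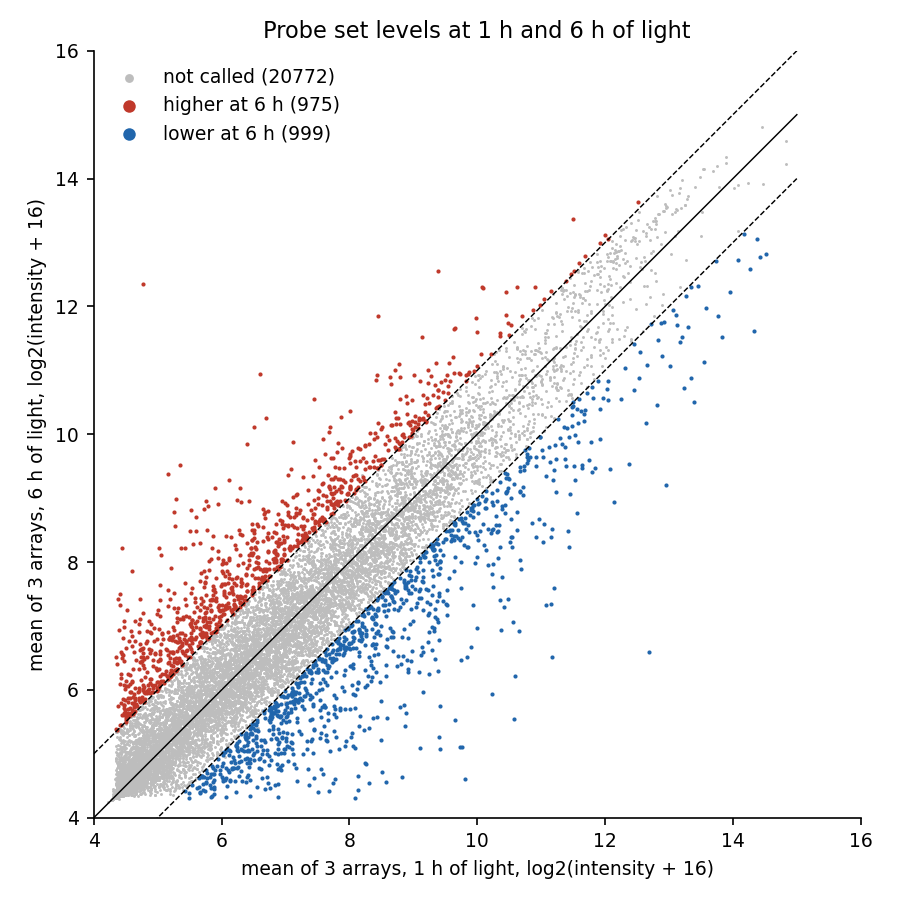
Mean log2(intensity + 16) of 3 arrays at 1 h (horizontal) and at 6 h of light (vertical) for each of 22746 probe sets. Dashed lines mark a log2 difference of 1 either way. The 975 probe sets called higher lie above the upper line, and the 999 called lower lie below the lower one and reach far down from high levels at 1 h.

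One enzyme class recurred among the strongest named rises. Of the 12 genes with the largest rise, 4 were serine carboxypeptidase-like genes, which encode secreted or vacuolar hydrolases and acyltransferases, and 1 was a subtilase, a secreted serine protease. For scpl20 the arrays read 99.7, 77.1 and 70.2 at 1 h and 2269, 2094 and 1563 at 6 h. The times were far apart, with means in a ratio of 24.0. The log2 difference was 4.33 ± 0.12 (SE, limma adjusted p = 8.44e-18). For scpl25 they read 129, 67.2 and 46.6 and then 1114, 1227 and 964, a difference of 3.61 ± 0.22 (limma adjusted p = 8.11e-12). For the subtilase SBT1.3 they read 21.4, 20.8 and 24.9 and then 433, 372 and 477, a difference of 3.53 ± 0.11 (limma adjusted p = 1.29e-16). For scpl48 all 3 arrays at 1 h were at the floor, between 5.12 and 5.34, and those at 6 h lay between 126 and 164. For scpl26 the means were 62.4 ± 11.2 and 555 ± 16.9 (SD, n = 3).

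Across the named members of both families, 7 of 37 probe sets were higher, among them scpl29 and scpl44 with differences of 1.64 and 1.60, and none was lower (18.9% against 4.29% of all probe sets). The other 30 did not pass, and 25 of the 37 had a mean under 32, so the median of the list was 0.01, against 0.00 over all probe sets. The member with the highest intensity, scpl35, stood at 3028, 2570.5 and 2593 and then at 4124, 4265 and 3850.3, a difference of 0.58 that did not pass the size threshold. Other protein-degrading enzymes moved as well, in a family grouped after the values were seen. CP1 (AT4G36880), a cysteine proteinase, rose from 1131, 916 and 1163 to 5254, 5526 and 4449 (2.23 ± 0.14, limma adjusted p = 1.66e-11). DELTA-VPE, a vacuolar processing enzyme, rose from between 5.48 and 6.12 to between 73.9 and 87.3, while BETA-VPE, which processes storage proteins in the maturing seed, went from between 4799.6 and 5400.4 to between 2754 and 3547, a difference of -0.69 that did not pass.

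The other large rises came from unlike genes. PYK10, the β-glucosidase of endoplasmic reticulum bodies, was at the floor at 1 h with 5.12, 5.10 and 5.52 and read 173, 149.8 and 173 at 6 h, a difference of 3.09 ± 0.07 (limma adjusted p = 1.23e-18). These 3 arrays caught the gene at the start of its course, for its mean was 5737 at 12 h and 14531 at 48 h of light. STR18, a sulfurtransferase, went from 38.8, 35.1 and 44.9 to 419, 442 and 502 (3.08 ± 0.12, limma adjusted p = 2.89e-15). AT5G45670, AT5G62720, AT1G73120 and AT3G27230, which carry no gene name in the tables used here, rose by 2.88 to 3.20. The largest rise of any probe set belonged to one without a gene name, which read 15.5, 11.2 and 8.04 at 1 h and 5194, 4977 and 5457 at 6 h.

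**Figure D2:**
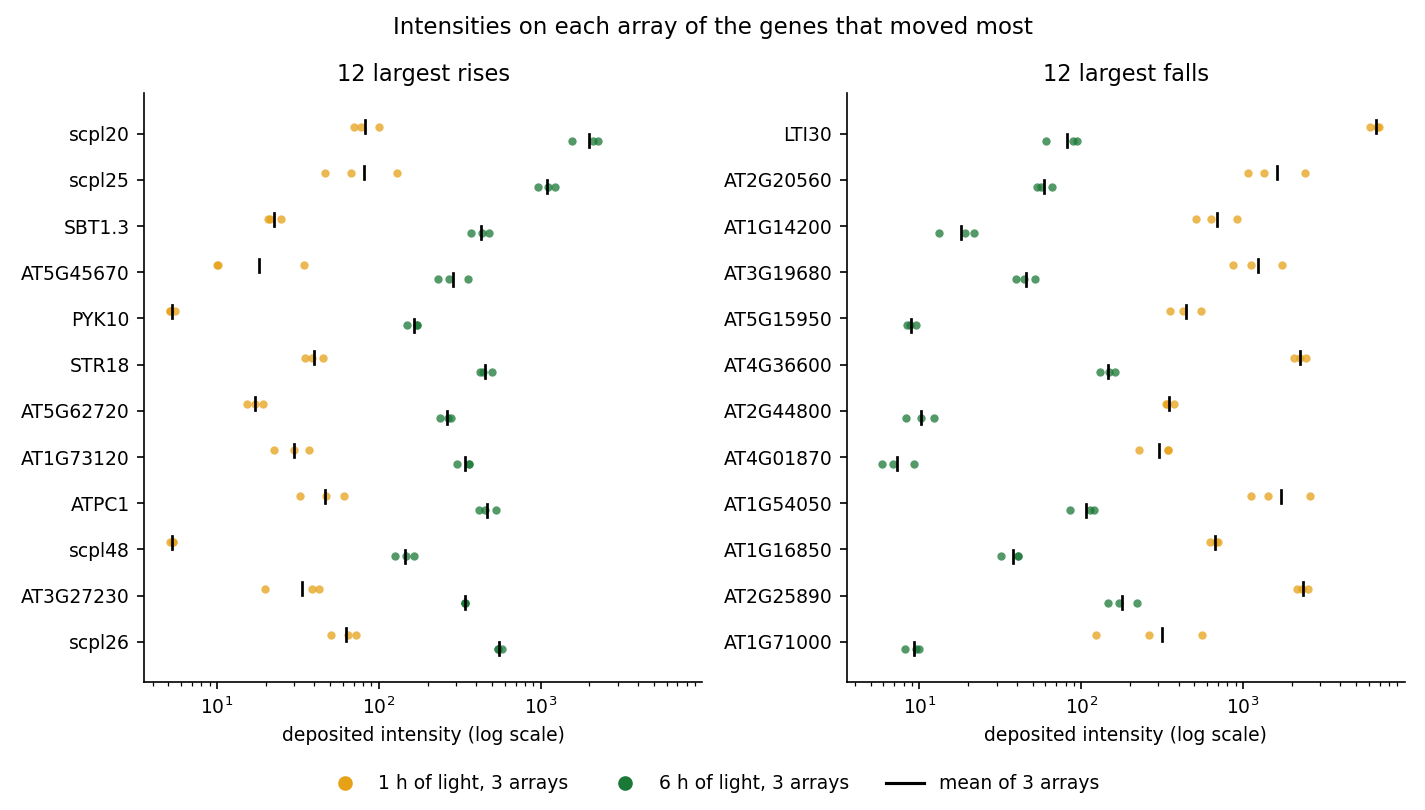
Deposited intensity (log scale) on each of the 3 arrays at 1 h (orange) and at 6 h (green) of light for the 12 named genes with the largest rise and the 12 with the largest fall, with the mean of 3 arrays as a black bar. The times do not overlap for any of the 24 genes, and in AT2G20560, AT3G19680, AT1G54050 and AT1G71000 one array at 1 h lies apart above the other 2.

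Several named nuclear genes of photosynthesis rose, from low levels. Of 13 named members 7 were higher and none lower (53.8%, against 4.29% of all probe sets higher), with a median difference of 1.04. The number higher was 3 with 64 added in place of 16, 6 after quantile normalization and 5 after median centring, with medians of 0.59, 0.88 and 0.98. ATPC1, the gamma subunit of the chloroplast ATP synthase, moved most, from 60.7, 47.0 and 32.4 to 532, 416 and 452 (2.96 ± 0.12, limma adjusted p = 4.50e-15). LHCB4.1, a minor antenna protein of photosystem II, went from 32.2 ± 2.08 to 158 ± 11.1 (SD, n = 3), and LIL3:1, a light-harvesting-like protein that acts in chlorophyll synthesis, from 132, 137 and 116 to 561, 479.8 and 504. The 2 times did not overlap in either gene, with differences of 1.85 ± 0.12 and 1.88 ± 0.15 (limma adjusted p = 1.63e-11 and 7.97e-10).

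Smaller rises were those of PSBY (1.46) and PSBW (1.04), small subunits of photosystem II, RCA (1.14), the activase of Rubisco, and SBPASE (1.04), an enzyme of the Calvin cycle. PSBW and SBPASE lay close to the size threshold, at 0.98 each when arrays were centred on their medians. PSBW was at 0.96 without replicate 3 of 1 h and at 0.97 without replicate 3 of 6 h, and SBPASE at 0.95 without replicate 1 of 6 h and at 0.88 after quantile normalization. The member with the highest intensity, LIL3:2, went from between 283 and 331 to between 476 and 512, a difference of 0.68 that did not pass. At 12 h of light against the stratified seed at 48 h all 13 were higher, with a median of 2.79. None of the 6 arrays enters that difference, though they share in its spread. Chlorophyll synthesis had 1 of 11 members higher and none lower, with a median of 0.54, against 4.29% of all probe sets higher. That member, HEMB1, which makes porphobilinogen, went from 218, 206 and 172 to 432, 400.2 and 433 (1.03 ± 0.10, limma adjusted p = 1.33e-08), and its difference was 0.94 without replicate 3 of 1 h. Cpn60beta2, a subunit of the plastid chaperonin, rose from 1353, 815 and 920.2 to 2793, 3311 and 3199.

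Of 69 probe sets for named genes of the plastid genome 9 were higher and none lower, against 4.29% of all probe sets higher. The median was 0.03, with 38 above 0 and 31 below. Several of the 9 were neighbours. At one end of a ribosomal protein operon rps19, rpl22 and rps3, for proteins of the plastid ribosome, had differences of 1.76, 1.36 and 1.83, and rpoA, for a subunit of the plastid RNA polymerase, at the other end of the cluster had 1.58. The members between them that could be placed by name, rpl16, rpl14 and rpl36, had 0.44, 0.98 and 0.89 and did not pass. For rps3 the arrays read 1059, 1295 and 723 at 1 h and 3142, 3979 and 3706 at 6 h (1.83 ± 0.35, limma adjusted p = 1.55e-04). For rps19 they read 1531, 1842 and 950.4 and then 4411, 4505 and 5429 (1.76 ± 0.39, limma adjusted p = 8.72e-04). Replicate 3 was the lowest 1 h array in all 4 of these genes. The call of rpl22 was lost without any 1 of 5 arrays, with an adjusted p of up to 0.151.

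Another block was psbJ, psbL, psbF and psbE, small subunits of photosystem II, with 1.61, 0.95, 1.01 and 0.60, of which psbJ passed, from 132, 147 and 106 to 390.2, 413 and 464. The neighbours atpE and atpB, of the plastid ATP synthase, had 1.04 and 0.96, of which atpE passed, and it was at 0.88 without replicate 3 of 1 h and at 0.91 without replicate 3 of 6 h. The rest of the 9 were psbI, rpl32 and rps18, and rps18 was at 0.95 without replicate 3 of 1 h and at 0.99 without replicate 2 of 6 h. Of the reaction centre and Rubisco genes psbA had -0.82, psaB -0.39 and rbcL -0.24, none of which passed. The largest falls in value, psbN with -1.17 ± 0.71 and ndhJ with -1.10 ± 0.84, had standard errors too wide to pass. These standard errors come from all 10 groups. Among 23 probe sets for genes of the mitochondrial genome, grouped after the values were seen and several of them for the same gene, cox1 was lower and none was higher. That is 4.35% lower, near the 4.39% of all probe sets. The arrays of cox1 went from 80.3, 85.6 and 69.8 to 19.1, 21.2 and 16.2.

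**Figure D3:**
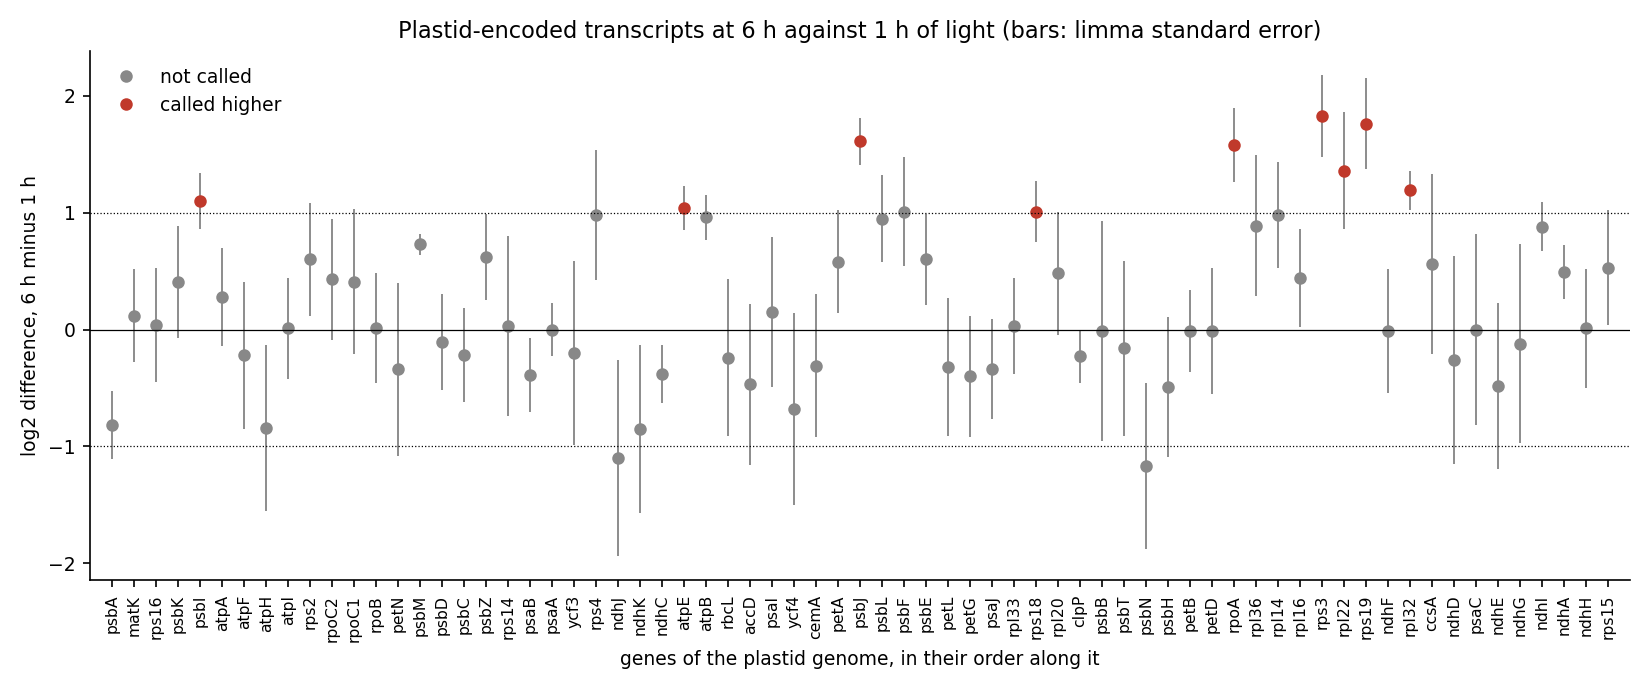
Log2 difference between 6 h and 1 h of light for the plastid genes that could be placed, in their order along the plastid genome, with the limma standard error as bars and the genes called higher in red. The cluster from rpoA to rps19 and the stretch from psbJ to psbE lie above 0, while most other genes scatter around it.

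Tubulins, the subunits of microtubules, were called in both directions. Of 10 genes of the cytoskeleton 4 tubulins were higher and 1 lower, against 4.29% and 4.39% of all probe sets, and with 64 added 2 were higher and none lower. TUA6, an α-tubulin, rose from 660.2, 482 and 514 to 3237, 2845 and 2683 (2.38 ± 0.10, limma adjusted p = 2.59e-14), and the β-tubulins TUB6, TUB5 and TUB7 by 2.20, 1.88 and 1.47. In contrast TUA1, an α-tubulin known from pollen, fell from 177, 187 and 189 to 67.8, 68.3 and 66.7 (-1.26 ± 0.08, limma adjusted p = 1.60e-11). The difference between the 2 α-tubulins was not tested.

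Of 29 expansins and xyloglucan endotransglucosylases, proteins that loosen the wall, 2 were higher and 1 lower (6.90% and 3.45%), shares near the 4.29% and 4.39% of all probe sets. EXPA9 rose from 75.7, 69.6 and 73.7 to 443, 353 and 263 (2.02 ± 0.12, limma adjusted p = 7.11e-12), and EXPA4 from between 7.54 and 12.1 to between 27.5 and 54.1. EXPB1, a β-expansin, fell from 50.8, 77.2 and 80.4 to 14.9, 12.9 and 11.4 (-1.54 ± 0.15, limma adjusted p = 1.70e-08). XTH19, with the highest intensity of the list, lay between 1779 and 2324 at 1 h and between 1591 and 2181 at 6 h, and the 2 times overlapped. CSLC04, a synthase of the xyloglucan backbone, rose from 41.2, 27.2 and 22.8 to 76.3, 99.1 and 77.4 (1.12 ± 0.17, limma adjusted p = 1.28e-05). It was the 1 call among 14 wall-building genes (7.14%, near the 4.29% of all probe sets higher). SKU5, a surface protein of directed root growth grouped after the values were seen, rose from between 11.9 and 26.9 to between 166 and 202.

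Of 10 named genes of DNA replication and the cell cycle 3 were higher and none lower, against a background of 4.29% of probe sets higher. The median was 0.01, 5 of the 10 had a mean under 32, and with 64 added 1 was higher. PRL, the MCM7 subunit of the replicative helicase, was at the floor at 1 h with 6.64, 5.55 and 6.08 and read 96.9, 99.2 and 92.9 at 6 h (2.35 ± 0.06, limma adjusted p = 2.56e-18). POLA3, a subunit of the DNA polymerase that primes replication, rose by 1.11 and SIM, an inhibitor of cyclin-dependent kinases, by 1.10. HBT, a subunit of the complex that degrades mitotic cyclins, had -0.50 and did not pass. Of 3 genes listed for nucleotide synthesis UPP, which salvages uracil, rose by 2.11 from between 40.6 and 53.1 to between 241 and 262. PyrD, also on that list, rose by 1.13 and is known as a deaminase of riboflavin synthesis. Among 7 histone genes the linker histones HON4 and HIS1-3 were lower (28.6%, against 4.39% of all probe sets). HON4 went from 582, 705 and 582 to 173, 177 and 192 (-1.69 ± 0.13, limma adjusted p = 3.59e-10) and HIS1-3, known from drought, from 65.4, 81.2 and 66.7 to 12.2, 12.8 and 14.2 (-1.58 ± 0.11, limma adjusted p = 1.07e-10). HTB4, a core histone with the highest intensity of the list, had -0.28 and did not pass.

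The largest fall of all named genes was that of a stored protective transcript. LTI30, a dehydrin that binds membranes in dry and cold cells, read 6079, 6749.7 and 6958 at 1 h and 60.5, 89.5 and 94.0 at 6 h. All 1 h arrays lay far above all 6 h arrays, with means in a ratio of 81.1, and the difference was -6.10 ± 0.11 (limma adjusted p = 2.19e-20). Of 10 LEA genes 5 were lower and 2 higher (50.0% lower, against 4.39% of all probe sets), with a median of -1.02.

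M10 fell from 15289, 16175 and 15909 to 4458, 5019.6 and 4929 (-1.72 ± 0.17, limma adjusted p = 1.68e-08), and M17 from 17483, 18862 and 15825 to 6075, 6774 and 7423 (-1.36 ± 0.20, limma adjusted p = 6.97e-06). Their means at 1 h and 6 h were in a ratio of 3.29 and 2.57, against 81.1 for LTI30. LEA4-5 and LEA (AT2G21490) fell by 1.27 and 1.18. The 2 members that rose began low. COR47, a dehydrin like LTI30, went from 4.42, 4.67 and 4.25 to 96.6, 68.1 and 64.1 (2.16 ± 0.16, limma adjusted p = 2.62e-10), and AT2G44060, also named LEA26, from between 15.4 and 21.6 to between 55.2 and 71.7. PAP85, whose arrays are given above, fell by 1.65 ± 0.18 (limma adjusted p = 7.84e-08). The other named member of the storage list, the oil body protein OLEO3, had means of 208 ± 15.9 and 210.2 ± 27.8 (SD, n = 3) and a difference of 0.01 that did not pass. ICL, the isocitrate lyase of oil mobilization, lay between 18647 and 20152 and then between 14454 and 16394, a difference of -0.30 that did not pass. In that list 0 of 4 genes were called, against 4.29% of all probe sets higher and 4.39% lower. All 4 had a limma adjusted p under 0.05 (4 also unadjusted) and missed the size threshold.

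**Figure D4:**
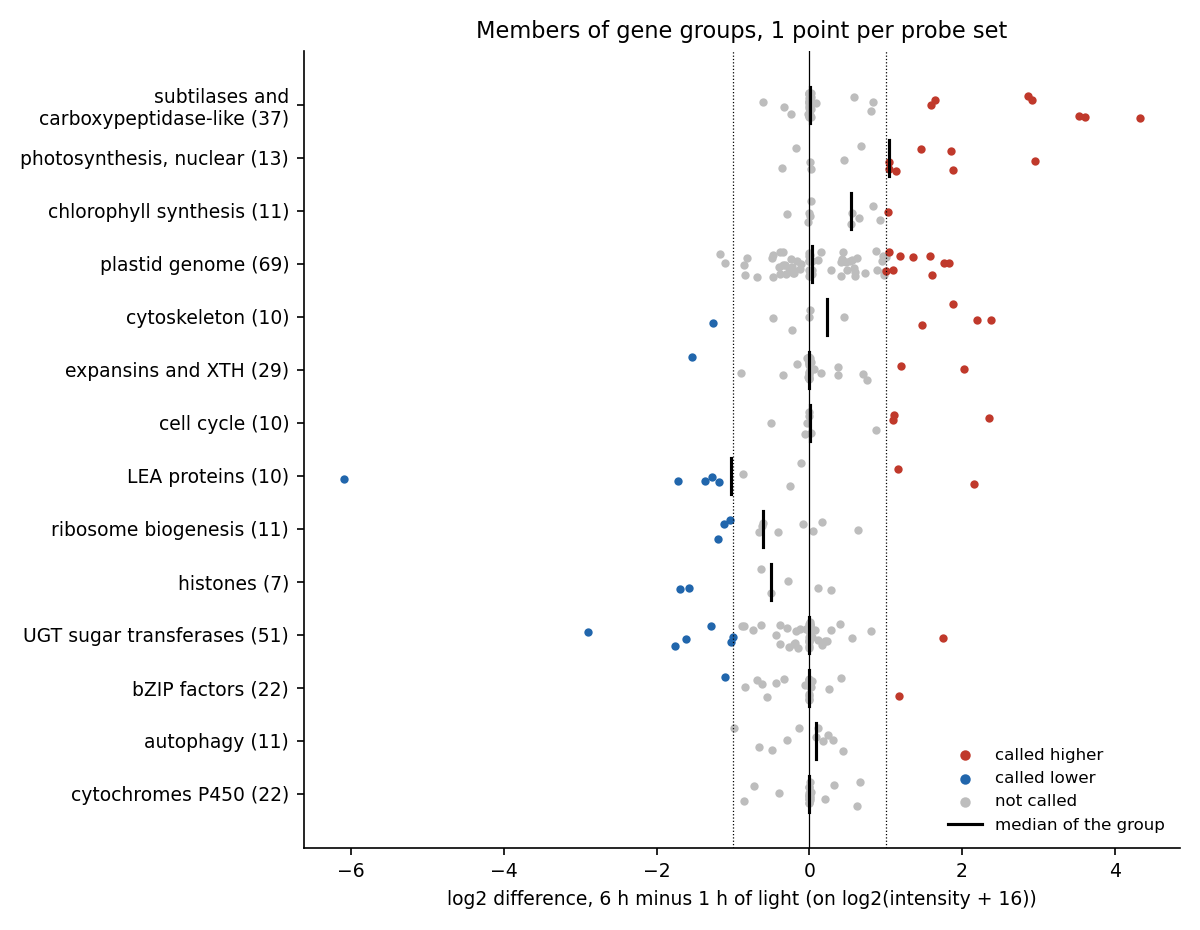
Log2 difference between 6 h and 1 h of light for the probe sets of 14 gene groups, with the number of probe sets in brackets, red for called higher, blue for called lower, grey for not called, a black bar at the median and dotted lines at a difference of 1. Subtilases with carboxypeptidase-like genes and photosynthesis hold red points and no blue ones, ribosome biogenesis and histones blue and no red ones, and LEA proteins and the cytoskeleton hold both. The ribosome biogenesis group is drawn with all 11 probe sets, AT3G21060 among them.

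Other large falls were of transcripts that had been abundant in dry seed or during stratification. AT4G36600 had a mean of 9326 in dry seed and read 2058, 2458 and 2256 at 1 h and 161, 149 and 130.2 at 6 h. AT2G25890 and AT1G16850 had means of 5560.4 and 1751 in dry seed, of 2331 ± 184 and 671 ± 39.2 at 1 h and of 179.7 ± 37.5 and 37.8 ± 4.98 at 6 h (SD, n = 3). In contrast AT5G15950, AT2G44800 and AT4G01870 had means of 8.10, 11.6 and 109 in dry seed and of 552, 431 and 547 at 48 h of stratification, and fell from 444 ± 101, 350.0 ± 22.2 and 305 ± 66.7 at 1 h to 8.89 ± 0.547, 10.3 ± 2.05 and 7.30 ± 1.75 at 6 h. These 3 genes were thus higher after stratification than in dry seed and near the floor at 6 h, with differences of -3.76 to -4.19.

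Another kind of fall followed a higher level at 1 h of light than at the end of stratification. Of the 999 probe sets lower at 6 h, 915 (91.6%) had been within 2-fold of 48 h of stratification at 1 h of light, and 68 (6.81%) had been at least 2-fold above it. Over all probe sets, 129 (0.567%) had been at least 2-fold above it. At 6 h 58 of the 68 were back within 2-fold of 48 h of stratification. The 1 h arrays enter both differences, so the return is given as a description, with no test. AT1G14200 had a mean of 1097 in dry seed and 20.2 after 48 h of stratification, and read 915, 513 and 636 at 1 h and 21.7, 19.2 and 13.2 at 6 h. AT3G19680 had means of 4185 after 12 h and 45.5 after 48 h of stratification, and read 1737, 872 and 1118 and then 39.7, 44.6 and 51.7. Both had thus been higher earlier than at 1 h of light. AT1G71000 had means of 249 in dry seed and 6.18 after 48 h of stratification, and had means of 314 ± 221 and then 9.22 ± 0.970 (SD, n = 3).

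The named genes among the 68 numbered 29 and included Fes1A, a partner of the chaperone Hsp70, which read 784, 507 and 563 and then 108, 114 and 110.5 (-2.30 ± 0.11, limma adjusted p = 2.71e-13). Its relative Fes1B rose from 56.5, 43.7 and 47.0 to 282, 221 and 238 (2.01 ± 0.14, limma adjusted p = 4.88e-11). AT3G10040, also named HRA1, an attenuator of the hypoxia response, read 763, 745 and 631 and then 144, 140.0 and 159, after 53.1 at 48 h of stratification. PUB19, an E3 ubiquitin ligase, read 61.9, 67.3 and 40.5 and then 14.1, 10.6 and 8.74, after 7.81.

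Replicate 1 of 1 h was the highest of its group in 58 of these 68 probe sets, against 220 of all 999 that were lower at 6 h. The medians over the 68 were 469.9, 263 and 335 on the 3 arrays at 1 h and 51.4, 56.6 and 52.8 at 6 h. Without that array 63 of the 68 were still lower at 6 h, and 62 were still at least 2-fold above 48 h of stratification. EXO, a secreted growth-promoting protein, was among those that were not, for it read 1043, 411 and 397 and then 201, 207 and 199, and its difference of -1.39 became -0.94. With the 2 groups alone in the fit, EXO had a limma adjusted p of 0.0619. The heat response list matched genes by symbol, locus or synonym. AT2G20560, AT1G54050 and AT1G71000, with differences of -4.37, -3.74 and -3.48, are not on that list, so its count does not cover them. Its 7 members held 0 calls, against 4.29% of all probe sets higher and 4.39% lower, with differences from -0.99 to 0.73. Of them 4 had a limma adjusted p under 0.05 (4 also unadjusted) and missed the size threshold. With 1 added in place of 16, and also after median centring, 2 were lower.

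Some genes that assemble ribosomes fell. The list matched 11 probe sets by symbol, but 1 of them, for AT3G21060 (RbBP5 LIKE), only shares the symbol RBL, and it had -0.60 and no call. Of the other 10, 3 were lower and none higher, against 4.39% of all probe sets lower, with a median of -0.52, and with 64 added 2 were lower. AT5G52820 (NLE, or NOTCHLESS) went from 1752, 1772 and 1739 to 744, 796 and 747 (-1.19 ± 0.08, limma adjusted p = 1.51e-11). RBL (AT3G55510, REBELOTE) went from 811, 864 and 879.7 to 349.9, 390.4 and 409, and YAO, a nucleolar protein, from 751, 791 and 791 to 372, 406 and 338. Their differences were -1.12 ± 0.12 and -1.04 ± 0.13 (limma adjusted p = 1.17e-07 and 5.82e-07), and that of YAO was -0.97 without replicate 3 of 6 h. The member with the highest intensity, AT5G14520 (PES, or PESCADILLO), had -0.66 and did not pass. In the comparison of 48 h with 12 h of stratification 9 of these 10 had been higher and none lower, against 10.1% of all probe sets higher. The 6 arrays do not enter that difference, though they share in its spread.

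Regulators of hormone and light responses were sparse among named probe sets and are given as values. GID1A, a receptor of gibberellin, fell from 161, 206 and 179 to 71.5, 80.1 and 60.2 (-1.19 ± 0.11, limma adjusted p = 5.68e-09). It was the 1 call among 6 named genes of that hormone (16.7%, against 4.39% of all probe sets lower). EIN3, the transcription factor of the ethylene response, fell from 1052, 1177 and 1085 to 442, 551 and 463, while RTE1, which restrains that response through a receptor, rose from 18.1 ± 6.18 to 54.4 ± 2.77 (SD, n = 3). The difference of RTE1 was 1.06, and 0.97 without replicate 3 of 1 h, and it also missed the threshold narrowly without replicate 2 of 1 h. HYH, a bZIP factor of light signalling, fell from 88.8, 118 and 103 to 21.1, 12.4 and 14.7 (-1.90 ± 0.16, limma adjusted p = 1.68e-09). COR27, a cold-regulated repressor in the circadian clock, fell from 89.5, 87.8 and 83.2 to 21.4, 24.6 and 16.1 (-1.49 ± 0.13, limma adjusted p = 2.67e-09). EIN3, RTE1 and HYH belong to lists of under 4 named members and were picked after their values were seen.

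Among 16 auxin genes, 15 of them with a mean under 32, 1 was called (6.25%, near the 4.29% of all probe sets higher). That gene was IAA33, of the Aux/IAA repressors of auxin response. It read 4.98, 4.93 and 5.04 at 1 h and 88.0, 96.7 and 140.1 at 6 h (2.54 ± 0.08, limma adjusted p = 1.26e-16), and its mean was back at 4.98 at 12 h. In the other 9 groups its mean stayed near that floor. Such a peak was rare. Of the 975 probe sets higher at 6 h, 12 (1.23%) were at least 2-fold lower again at 12 h, while 170 (17.4%) were at least 2-fold higher still. The other named genes among the 12 were AT5G10120, AT3G15357, AT5G12110 and AT1G27030. AT5G10120 had means of 783, 3192 and 1208 at 1, 6 and 12 h. For AT5G12110 and AT1G27030 the level at 6 h was not the highest of the course. AT5G12110 had means of 313 at 6 h, 139 at 12 h and 409 at 24 h, and its limma adjusted p was 0.0593 with the 2 groups alone in the fit. AT1G27030 had means of 186 in fresh seed, 158 at 6 h, 42.3 at 12 h and 724 at 48 h. The 6 h arrays enter both differences here as well, so this is a description with no test.

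**Figure D5:**
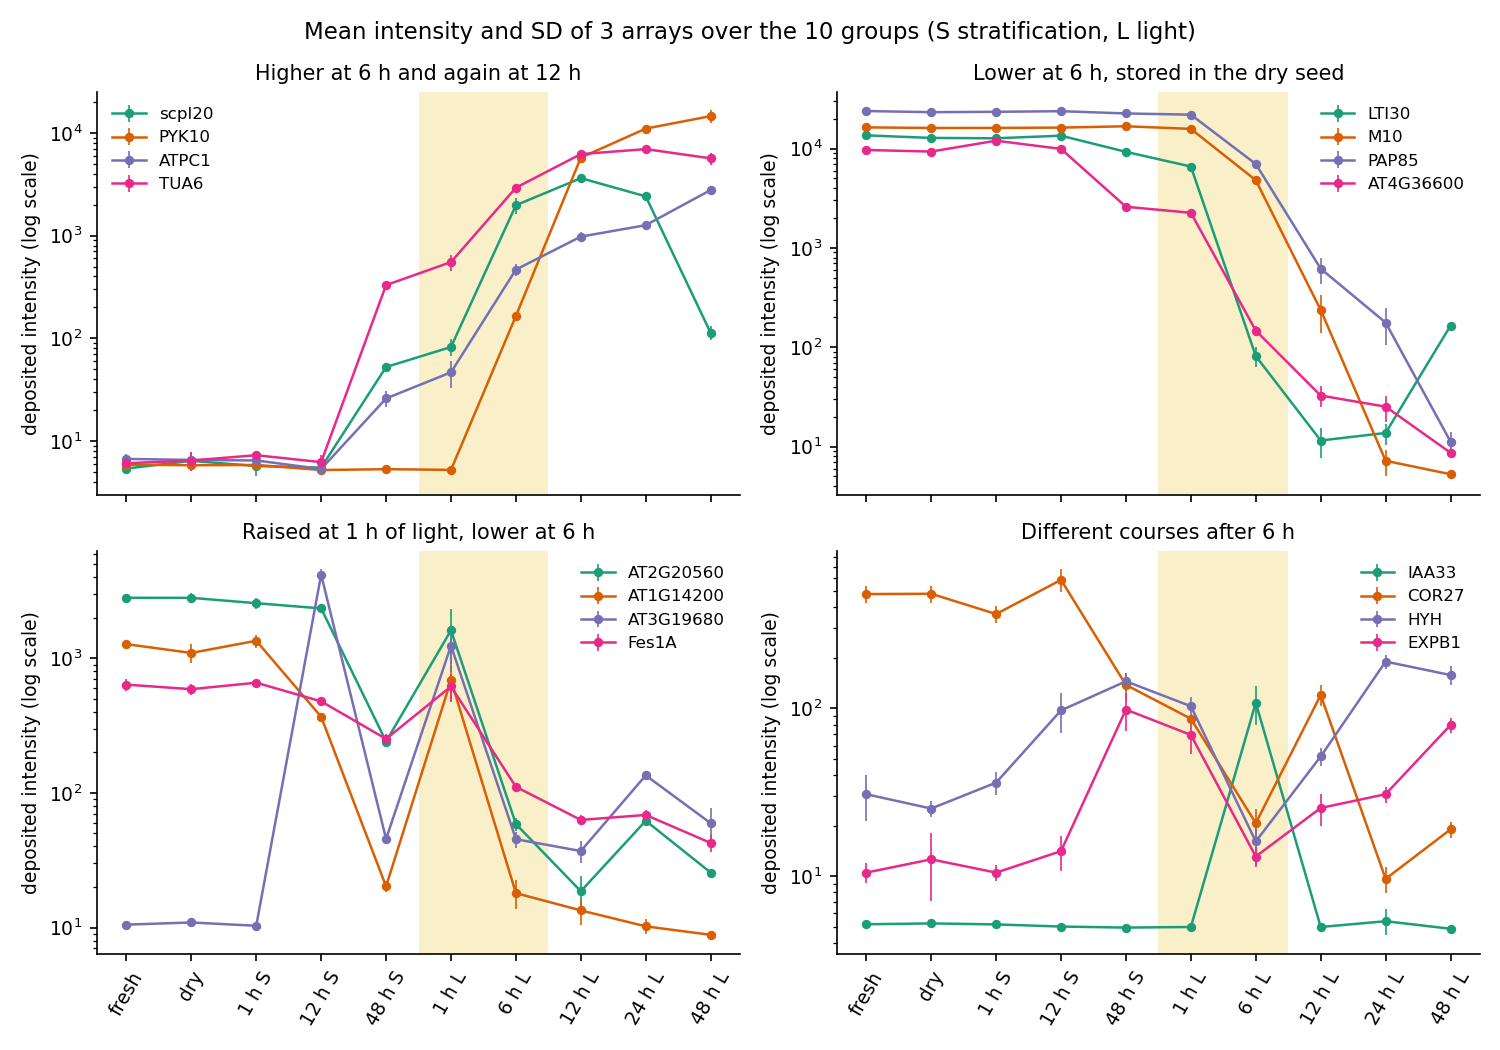
Mean deposited intensity and SD of 3 arrays (log scale) over all 10 groups, S for stratification and L for light, for 16 genes in 4 panels, with the interval from 1 h to 6 h of light shaded. Within the shading LTI30 falls from 6595 to 81.4, AT1G14200 from 688 to 18.0 after its rise in the first hour, and IAA33 rises from 4.98 to 108 and is back at 4.98 at 12 h.

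Enzyme families that attach sugars or glutathione held calls in both directions. Of 51 UDP-glycosyltransferases 6 were lower and 1 higher (11.8% and 1.96%, against 4.39% and 4.29% of all probe sets), and with 64 added 2 were lower. UGT72E1, which glucosylates lignin precursors, fell from 176 ± 13.4 to 9.74 ± 1.10 (SD, n = 3), with no overlap (-2.90 ± 0.09, limma adjusted p = 1.71e-16), and UGT76B1 and UGT87A2 fell by 1.76 and 1.61. UGT74B1, of glucosinolate synthesis, rose from 38.6, 42.0 and 47.0 to 207, 185 and 155 (1.75 ± 0.11, limma adjusted p = 1.31e-11). UGT71C5, which glucosylates abscisic acid, fell by 1.29, and UGT71C3 and UGT85A4 also passed, close to the threshold. UGT71C3 was at -0.94 without replicate 2 of 6 h and at -0.95 after quantile normalization. UGT85A4 was at -0.94 without replicate 1 of 1 h and at -0.97 without replicate 3 of 6 h, and also missed the threshold narrowly without replicate 2 of 6 h. The 22 cytochromes P450, the 11 autophagy genes and the 11 flavonoid and phenylpropanoid genes held 0 calls each, against 4.29% of all probe sets higher and 4.39% lower. Of them 5, 5 and 1 had a limma adjusted p under 0.05 (6, 6 and 2 unadjusted) and missed the size threshold. Differences ran from -0.99 to 0.66 over the 3 lists. HCT, of phenylpropanoid synthesis, had -0.95 and passed the threshold in several other settings.

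Several more genes were called, some of them relatives in opposite directions, and the differences between genes were not tested. The sugar transporters, tetraspanins, organic cation transporters, aldehyde dehydrogenases and MADS factors were grouped after the values were seen. All lists were made with earlier results of these data known. NDB2 and NDB3, external NAD(P)H dehydrogenases of mitochondria, went from 110.1, 116 and 139 to 25.1, 27.6 and 19.2 and from 6.44, 6.38 and 6.10 to 45.8, 39.9 and 26.3. The sugar exporter SWEET1 fell from 1210.0, 1370.0 and 1530.3 to 452, 407 and 407, and SWEET6 fell by 1.74, while TMT1, which loads sugars into the vacuole, rose by 1.74. BZIP53, a bZIP factor of seed maturation, fell from 616, 541 and 540.0 to 239, 269 and 255, and EEL, another bZIP factor of the seed, rose from 29.9, 27.2 and 12.4 to 77.8, 63.6 and 72.1. The difference of EEL was 1.18, and 0.97 without replicate 3 of 1 h. The glutathione transferases GSTU20 and GSTU27 had 1.46 and -1.62, the tetraspanins TET7 and TET4 2.19 and -1.40, and the organic cation transporters OCT1 and OCT4 1.81 and -1.11. PDC2, a pyruvate decarboxylase of fermentation, fell by 1.49 and ALDH11A3, a cytosolic glyceraldehyde 3-phosphate dehydrogenase, rose by 2.09. The MADS factors AGL67 and AGL18 fell by 1.77 and 1.27, the 2 calls among 44 named genes of that family (4.55% lower, near the 4.39% of all probe sets).

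Further families were grouped after the values were seen. LCR68, a defensin-like protein, rose from 163, 122 and 132 to 633, 654 and 603 (2.07 ± 0.12, limma adjusted p = 2.80e-12). RALFL34, a signalling peptide, rose from 471, 437 and 483 to 1259, 1315 and 1221 (1.42 ± 0.11, limma adjusted p = 2.54e-10). IQD30 and IQD31, which bind calmodulin, rose by 1.68 and 1.65. In all 4 genes the 2 times did not overlap. Of 25 probe sets for ubiquitin-conjugating enzymes and ligases 4 were lower and none higher, against 4.39% of all probe sets lower, with a median of -0.10. One of the 4, LUL2, was just past the threshold, at -0.95 after quantile normalization and at -0.89 and -0.98 without replicate 3 of 1 h and of 6 h. UBC30, a ubiquitin-conjugating enzyme, fell from 1158, 1444 and 1526 to 482, 455 and 441 (-1.54 ± 0.07, limma adjusted p = 4.12e-14), and LUL1, a ubiquitin ligase, from 118, 114 and 108 to 26.0, 36.1 and 26.4. BGLU19, a β-glucosidase like PYK10, fell from 1448, 1309 and 1396 to 579, 541 and 478 (-1.36 ± 0.08, limma adjusted p = 2.27e-12), and its mean in dry seed had been 12729.9.

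The interval was then placed between arrays it does not use. At 12 h of light, set against stratified seed at 48 h, 2308 probe sets were higher (10.1%) and 2057 lower (9.04%). Of the 975 that rose between 1 h and 6 h, 908 (93.1%) were among those higher there, which is 39.3% of that list, and 1 was lower. Of the 999 that fell, 863 (86.4%) were lower there, which is 42.0% of that list, and 12 were higher. That comparison encloses the interval. At 1 h, 960 (98.5%) of the rises and 915 (91.6%) of the falls were within 2-fold of 48 h of stratification. A large overlap thus follows from the order of the times, and it is given as a description with no test. In the earlier step from 12 h to 48 h of stratification 2286 were higher (10.1%) and 1900 lower (8.35%). Of the 975 rises 244 had been higher in that step, 10.7% of its list, and 70 (7.18%) lower, 3.68% of its list. Of the falls 333 (33.3%) had been lower, 17.5% of that list, and 231 (23.1%) higher, 10.1% of that list.

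The medians over the changed probe sets show the same placement. Those that rose had a median intensity of 23.7 in dry seed, 49.1 at 48 h of stratification, 59.9 at 1 h, 216 at 6 h and 315 at 12 h of light. Those that fell had 287 in dry seed, 273 at 48 h of stratification, 285 at 1 h, 78.8 at 6 h and 51.7 at 12 h. The difference between 1 h and 6 h chose these probe sets, and all 10 groups share in the spread behind the calls. The medians are therefore a description with no test.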

How the data were processed

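Biotin-labelled RNA of 80 mg seed samples was hybridized to 1-colour Affymetrix arrays, per the labels' protocols. The authors deposited 1 linear intensity per probe set and array, already summarized and normalized. The tools MAS5, RMA and Partek are listed per the submitters' processing notes, with no role, and their versions are not given in the sources used. Of 22810 probe sets 64 controls were set aside.

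After 16 was added, log2 values of the 30 arrays entered a model with a mean for each group (lmFit and eBayes of limma 3.58.1, R 4.3.3, with 20 residual and 1.2052 prior degrees of freedom). Having 3 arrays per group limits the precision. Detection calls were not used. The fit was tested on simulated data.

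Probe sets were named through the platform annotation and RefSeq gene table of TAIR10.1, where 13513 name 1 gene, 503 several and 8730 none, and 13436 were found in the table. Plastid order is that of the table. Of 147 genes with several probe sets, 13 had some called and some not, and 0 had calls in opposite directions.

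Named genes are the 12 largest rises and 12 largest falls among called probe sets that name 1 gene and whose groups do not overlap. In each list of at least 4 named members they are also the 3 largest called rises and falls and the member with the highest mean. Genes outside the rule are given as such or as further called members of a list. Members and lists were chosen with earlier results of these data known. Of 68 lists 22 were added after the values were seen, and lists that are not mentioned are not reported as groups. Alternatives were other pseudocounts, quantile normalization, median centring, fewer arrays, a filter on dim probe sets, an eBayes trend and a replicate block. Figures were made with Python 3.11.15, pandas 2.3.3 and matplotlib 3.10.9.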

Additional observations from a re-analysis of the deposited data

How the results depend on the processing

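The counts depended on the size threshold and the pseudocount. With 64 in place of 16, 1047 probe sets changed between 1 h and 6 h of light (486 higher, 561 lower), and with 1 in place of 16, 1538 were higher. Without the size threshold 7753 passed on adjusted p alone (3961 higher, 3792 lower). With 64, 1388 were higher and 1267 lower at 12 h of light, set against stratified seed at 48 h, and 1385 higher and 1255 lower between 12 h and 48 h of stratification. Quantile normalization, median centring (859 higher, 1103 lower), the 2 groups alone, the trend and the filter on dim probe sets kept all counts of the main comparison within 1.5-fold. Leaving out 1 array at a time gave 1927 to 2132 changed, 919 to 1085 higher and 965 to 1047 lower. Same-numbered arrays of the 2 groups deviated together with r of -0.014, 0.177 and 0.069, so the numbers were not taken as pairs. With the replicate number as a block the counts were 1974 changed, 975 higher and 999 lower. In the other comparisons the block gave 2308 higher and 2057 lower, and 2286 higher and 1900 lower. Of 154 named probe sets that were called, 94 kept their call under every alternative run, 55 lost it with 64 and 23 in another setting, and 0 turned direction. HCT, which was not called, passed with -1.16 under a pseudocount of 1, with -1.01 under median centring, quantile normalization and without replicate 2 of 6 h, and with -1.08 without replicate 1 of 1 h. Weak signal limits calls near the floor, where 11169 probe sets were under 16 on all arrays at 1 h.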
